A study of Mus musculus with 6 samples.

Results

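The mouse T cell receptor (TCR) β locus, which encodes the β chain of the αβ TCR, was measured in double-negative (DN) thymocytes that carried an extra copy of *Nfatc1* and in control DN thymocytes. Every row of the gene tables whose name starts with *Trbv*, *Trbd*, *Trbj* or *Trbc* was taken, which gave 39 of the 41457 genes listed: 22 variable (V), 2 diversity (D) and 13 joining (J) segments and 2 constant (C) regions. Nc1Bio thymocytes (3 libraries, genotype given as NFATc1 overexpression) expressed the biotin ligase BirA and, from a single copy of a bacterial artificial chromosome with the whole *Nfatc1* locus, additional NFATc1 with a biotin tag at its C terminus. BirA thymocytes (3 libraries, genotype given as WT) had the ligase alone and normal NFATc1 levels. The mice of the study were 4 to 6 weeks old, on the C57/B6 background, and matched for sex and age. The study describes the DN thymocytes of both genotypes as freshly isolated. Cells positive for CD4 or CD8 had been depleted with magnetic beads, so the fraction was not sorted further and can hold any cell that lacks both co-receptors. No label tells if the 3 libraries of a group came from separate animals, so p-values measure the spread between libraries only, which may be technical.

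The β locus is assembled in DN thymocytes by the RAG recombinase, which first joins a D to a J segment and then a V segment to the DJ unit. Each D-J cluster lies before its own C region, and an assembled V-D-J exon is spliced to the nearest C region downstream. The β chain pairs with the pre-TCR α chain, encoded by *Ptcra*, and signalling from this pre-TCR lets a cell proceed beyond the DN stage. Unassembled V segments can be transcribed too, and counts per segment do not separate these germline transcripts from assembled ones.

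All 39 segments lie on chromosome 6 of the GRCm38 build. The V segments start with *Trbv1* (40891229 to 40891885) and run to *Trbv30*, followed by *Trbd1*, the *Trbj1* cluster, *Trbc1* (41538218 to 41539881), *Trbd2*, the *Trbj2* cluster and *Trbc2* (41546730 to 41548352). *Trbv31* (41557691 to 41558452) lies beyond *Trbc2* and is the only one of the 39 annotated on the minus strand. Thus it joins by inversion rather than by deletion. Of the 22 V segments, 9 adjacent ones form the stretch from *Trbv12-1* (start 41113550) to *Trbv17* (end 41163556), to which much of the variation between libraries was tied.

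This stretch holds the *Trbv12* and *Trbv13* families, whose members are similar enough for short reads to be a concern. The last 75 coding bases of their members are shown 5′ to 3′. There the segment ends in the codons that open the most variable antigen-binding loop. The segments of this stretch carried the main difference between libraries, but counts per segment do not tell where in a segment a read lay. Capitals mark bases that differ from *Trbv12-2* in *Trbv12-1*, from *Trbv12-1* in *Trbv12-2*, from *Trbv13-2* in *Trbv13-1* and *Trbv13-3*, and from *Trbv13-1* in *Trbv13-2*.
*Trbv12-1*: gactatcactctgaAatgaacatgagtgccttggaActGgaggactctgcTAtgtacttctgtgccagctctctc
*Trbv12-2*: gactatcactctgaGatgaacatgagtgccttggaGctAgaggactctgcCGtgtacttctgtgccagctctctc
*Trbv13-1*: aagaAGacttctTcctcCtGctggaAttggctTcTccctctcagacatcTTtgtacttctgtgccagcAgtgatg
*Trbv13-2*: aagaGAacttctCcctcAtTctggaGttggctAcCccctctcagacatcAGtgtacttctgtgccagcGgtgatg
*Trbv13-3*: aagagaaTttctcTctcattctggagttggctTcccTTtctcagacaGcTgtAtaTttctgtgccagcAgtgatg

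Over the whole coding part, *Trbv12-1* and *Trbv12-2* were 88.2% identical, and the *Trbv13* pairs were between 85.9% and 90.6% identical. At 49 bases, the read length left after trimming, no stretch of a V segment occurred in another coding transcript, except for 2 windows shared by *Trbv13-2* and *Trbv13-3*. At that length the coding sequences of V segments can thus be told apart, other than in these windows. The sequences are coding transcripts of GENCODE M1, whose coordinates belong to the older NCBIM37 build and are not given. The 24 V and C transcripts were matched by symbol.

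The 6 libraries held 11845952 to 14013497 unique gene reads in Nc1Bio and 13767665 to 15393763 in BirA. *Nfatc1* was at 573, 597 and 551 CPM (counts per 1000000 reads, with TMM-scaled library sizes) in Nc1Bio, against 152, 128 and 96.8 CPM in BirA, as the labels require (log2 fold change 2.19 ± 0.16, edgeR adjusted p = 0.014), where the error of a log2 fold change is its standard error (SE) throughout. Of 12224 tested genes it was the 1 called at an adjusted p under 0.05. All 8 DN thymocyte markers were detected in both groups, and their log2 fold changes were all above 0, where 50.4% of all tested genes were below 0. They ran from 0.01 ± 0.12 (*Bcl11b*) to 1.20 ± 0.29 (*Ptcra*), and none was called. For 4 other cell types the summed markers differed between the groups. The summed level of 6 mature αβ T cell markers was 673 to 726 CPM in Nc1Bio and 926 to 1130 CPM in BirA, that of 7 γδ T cell markers 1162 to 1509 in Nc1Bio and 1591 to 2060 CPM in BirA, that of 6 B cell markers 289 to 1560 in Nc1Bio and 1638 to 2012 CPM in BirA, and that of 5 NK cell markers 288 to 468 in Nc1Bio and 601 to 658 CPM in BirA. None of these 4 sums overlapped between the groups, and their part in the *Trb* results was not tested. In such mixed samples, fewer cells of a type and less RNA per cell cannot be told apart.

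Transcripts of the β locus were found in similar amounts in both genotypes. Summed over the 39 segments, they reached 1107, 998 and 1153 CPM in Nc1Bio, against 1091, 1130 and 1359 CPM in BirA, with a log2 ratio of the means of -0.14. They made up 0.103% to 0.112% of unique gene reads in Nc1Bio and 0.106% to 0.142% in BirA. Of the 39 segments, 33 had enough reads to be tested (19 V, 12 J and both C), and 0 of them passed an adjusted p of 0.05 by edgeR, where 0.00818% of all tested genes did. An unadjusted p under 0.05 was reached by 0 of the 33, against 12% of all tested genes. DESeq2 also called 0 of the 33, where it called 2.79% of all genes, and limma-voom 0, where it called 0.00818%. At an unadjusted p under 0.05 both gave 0 of the 33, where DESeq2 gave 12.5% of all genes and limma-voom 11.5%. The lowest edgeR adjusted p was 0.552, for *Trbv29*. For each of the 33 segments the range of the Nc1Bio libraries overlapped that of the BirA libraries, while over all tested genes 9.98% lay wholly below and 8.45% wholly above.

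The classes differed in the sign of their fitted values. Of the 33 tested segments, 24 had a log2 fold change below 0 and 9 above 0, with a median of -0.13, while over all tested genes 50.4% were below 0 and the median was -0.0026. The negative values came mainly from V segments, with 17 of 19 below 0 and a median of -0.40. The J segments split into 5 below and 7 above 0, with a median of 0.015, and both C regions were slightly below 0. Segments of the stretch from *Trbv12-1* to *Trbv17* varied together from library to library, so these counts hold fewer independent values than members.

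**Figure D1:**
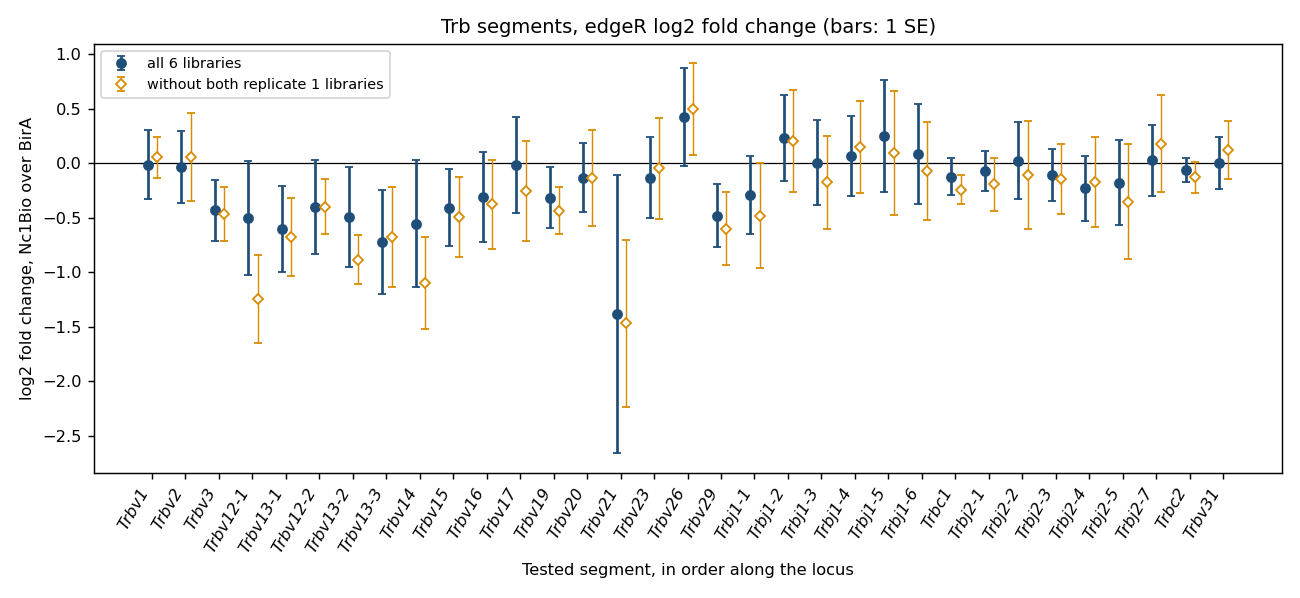
Log2 fold change of Nc1Bio over BirA (y axis) for the 33 tested segments in order along the locus (x axis), from all 6 libraries (filled circles) and without both replicate 1 libraries (open diamonds), with bars of 1 standard error. Values of the V segments lie mostly below 0, from -1.38 for *Trbv21* to 0.42 for *Trbv26*, and those of the J segments and C regions lie close to 0.

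The C regions carried most of the reads. *Trbc2* was at 510, 477 and 530 CPM in Nc1Bio, against 483, 497 and 605 CPM in BirA. *Trbc1* was at 267, 289 and 300 CPM in Nc1Bio, against 236, 313 and 385 CPM in BirA. In both regions the groups overlapped, and BirA replicate 3 was the highest of all libraries. The log2 ratio of the summed C reads was -0.08, and 0.05 without that library. The fitted log2 fold changes were -0.06 for *Trbc2* (SE 0.11, edgeR adjusted p = 0.858) and -0.12 for *Trbc1* (SE 0.17, edgeR adjusted p = 0.805). These are the most precisely measured segments, with 3201 to 8704 unique reads per library. Per kilobase of gene length, mean levels from unique reads were 312 CPM for *Trbc2* and 172 CPM for *Trbc1* in Nc1Bio. In BirA they were 325 CPM for *Trbc2* and 187 CPM for *Trbc1*.

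The level of *Trbc1* depended on how reads with more than 1 place were counted. Total gene reads of *Trbc1* were 12295, 13552 and 14494 in Nc1Bio and 13059, 17212 and 19422 in BirA, which is 3.51 to 4.002 times its unique reads. By contrast, total and unique reads of *Trbc2* were equal in every library. In 37 of the 39 segments the columns held the same number in every library, the other exception being *Trbv13-2*, which differed by 1 read. The coding parts of *Trbc1* and *Trbc2* share their first 259 bases without a difference and 488 of 512 aligned bases in all. Of the 49-base windows of *Trbc1*, 285 of 464 also occur in *Trbc2*. Reads that cover a difference can be assigned to one region. The gene rows, of 1664 bases for *Trbc1* and 1623 for *Trbc2*, are longer than the coding parts, and the rest was not compared. The stretch in which 20 of the 24 coding differences lie is shown (bases 393 to 512 of each coding part, differences in capitals).
*Trbc1*: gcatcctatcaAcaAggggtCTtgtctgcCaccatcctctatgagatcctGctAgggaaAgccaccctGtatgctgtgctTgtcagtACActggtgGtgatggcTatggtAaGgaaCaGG
*Trbc2*: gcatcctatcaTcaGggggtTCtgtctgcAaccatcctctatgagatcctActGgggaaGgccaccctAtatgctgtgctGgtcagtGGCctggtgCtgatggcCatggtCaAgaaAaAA

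The sources used here do not state why the total column added reads to *Trbc1* alone. On total reads *Trbc1* took 66.7% to 68.3% of C reads in Nc1Bio and 66.1% to 69.1% in BirA. Which of the C regions was higher thus depended on the column. The ratio of *Trbc1* to *Trbc2* therefore holds for unique reads, and its absolute value is uncertain. The comparison of genotypes moved little with the column, with a median log2 fold change over the 33 segments of -0.13 for total reads as well. On total reads, too, 24 were below 0 and 0 were called by edgeR, where 0.00764% of all tested genes were.

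**Figure D2:**
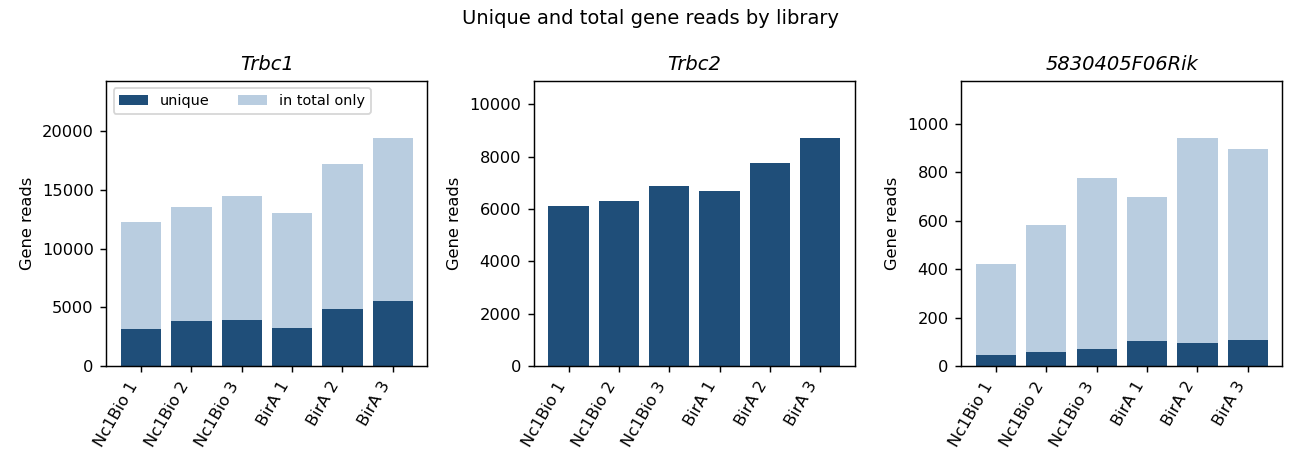
Gene reads (y axis) in each library (x axis, Nc1Bio left of BirA) for *Trbc1*, *Trbc2* and the non-coding RNA gene *5830405F06Rik*, divided into reads of the unique column and those in the total column only. Most reads of *Trbc1* and *5830405F06Rik* are in the total column only, and *Trbc2* has none of these.

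The D segments could not be followed. *Trbd1* (12 bases) and *Trbd2* (14 bases) had 0 reads in all 6 libraries in both columns, and a D segment is much shorter than a read. *Trbj1-7* had 0 reads as well, which allows at most 3 reads, or 0.192 to 0.250 CPM, per library. *Trbv4* and *Trbv5* also had 0 reads. Both lie inside *5830405F06Rik* (41055883 to 41063102), a non-coding RNA gene annotated on the plus strand, and how a read over both genes was assigned is not stated. This gene had 48, 57 and 70 unique reads in Nc1Bio, against 103, 96 and 108 in BirA, and 421, 585 and 777 total reads in Nc1Bio, against 699, 942 and 897 in BirA. Its unique CPM did not overlap between the groups (3.998 to 5.398 in Nc1Bio and 6.147 to 7.503 in BirA), with a log2 fold change of -0.62 ± 0.28 by edgeR (adjusted p = 0.442). The zeros of *Trbv4* and *Trbv5* therefore cannot be read as absence of their transcripts. *Trbv30*, with 4 to 13 reads per library, was below the filter.

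V segment reads were the most variable class. They summed to 269, 175 and 256 CPM in Nc1Bio, against 314, 255 and 302 CPM in BirA, with a log2 ratio of the means of -0.32. Nc1Bio replicate 2 was the lowest of the 6 libraries, and without it the ratio was -0.15. V reads per 100 C reads were 34.6, 22.9 and 30.8 in Nc1Bio, against 43.8, 31.5 and 30.5 in BirA, so the groups overlapped in this ratio as well. J segments gave 61.5, 56.8 and 66.5 CPM in Nc1Bio, against 58.5, 65.2 and 67.5 CPM in BirA, a log2 ratio of -0.05. The number of V segments in effective use (the inverse of the summed squared shares) was 10.8, 12.004 and 12.9 in Nc1Bio and 11.04, 12.4 and 13.4 in BirA.

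The stretch from *Trbv12-1* to *Trbv17* divided the libraries by replicate number rather than by genotype. Its 9 segments took 65.7%, 33.6% and 34.1% of V reads in Nc1Bio replicates 1, 2 and 3, against 66.7%, 43.3% and 41.0% in BirA replicates 1, 2 and 3. Thus both replicate 1 libraries stood far above the other 4. The 95% Wilson intervals of the replicate 1 libraries, 64.0% to 67.3% in Nc1Bio and 65.3% to 68.1% in BirA, lay above those of all other libraries, the highest of which ended at 44.9%. Such intervals cover counting error only, since reads without molecular identifiers are not independent molecules.

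Each of the 9 segments took part in this division. For 9 of 9 the share of V reads was higher in both replicate 1 libraries than in each of the other 4, and so was the CPM. Over all tested genes, 6.03% had a higher CPM in both replicate 1 libraries than in the other 4, and 6.06% a lower one. The plan of the comparisons did not set the limits of the stretch, and its segments varied together. Counts of its members, here and below, thus describe the division and are no test of it. Outside the stretch, 11 of the 11 V segments with reads had a lower share of V reads in both replicate 1 libraries, and 6 of the 11 a lower CPM. The CPM of the stretch summed to 177, 58.8 and 87.2 in Nc1Bio and to 210, 111 and 124 in BirA. The V segments before it, *Trbv1* to *Trbv3*, took 14.6%, 32.5% and 31.2% of V reads in Nc1Bio and 15.2%, 26.6% and 26.3% in BirA. Those behind it, *Trbv19* to *Trbv30*, took 16.02%, 27.0% and 28.1% in Nc1Bio and 14.2%, 25.0% and 28.0% in BirA. Because shares of V reads sum to a fixed total, a high share of the stretch goes with low shares elsewhere. In CPM, 2 of 3 segments before the stretch, 4 of 7 behind it and 0 of 1 beyond the C regions were lower in both replicate 1 libraries than in the other 4.

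**Figure D3:**
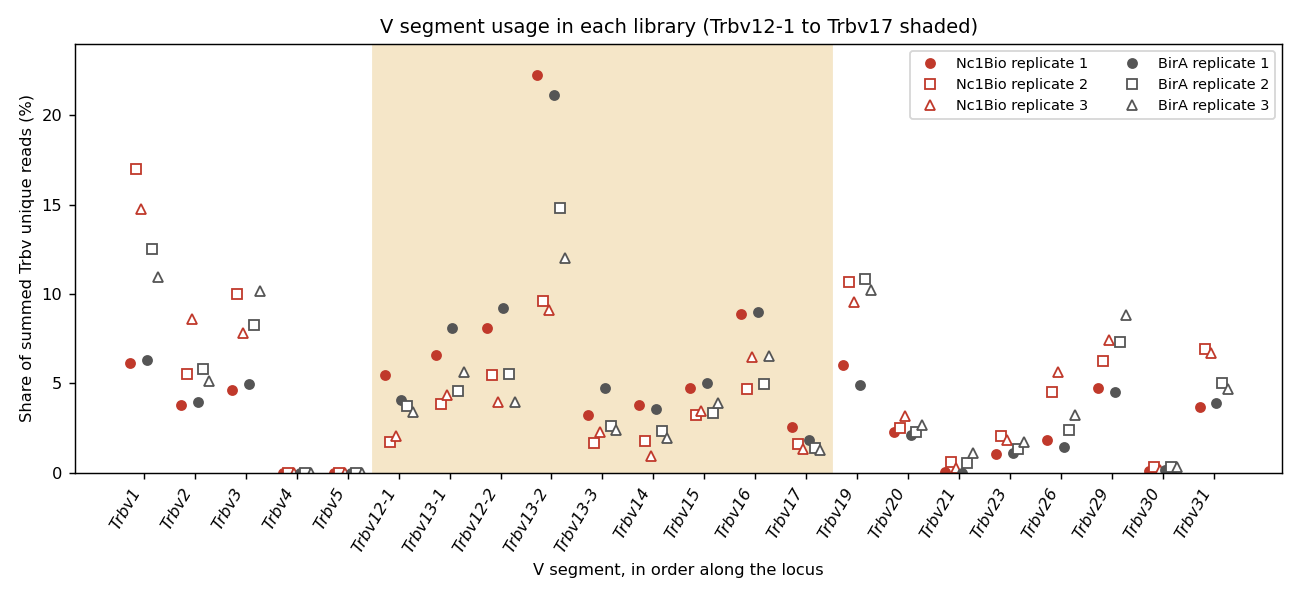
Share of summed V reads in percent (y axis) of each V segment in order along the locus (x axis) in the 3 Nc1Bio (red) and 3 BirA (grey) libraries, with replicate 1 filled and *Trbv12-1* to *Trbv17* shaded. Both filled points lie above the open ones in each shaded segment, and below the open ones in each unshaded segment with reads.

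The replicate number has no stated meaning in the labels, and the files give no batch or date. In the whole transcriptome, the deviations of Nc1Bio replicate 1 and BirA replicate 1 from their group means correlated at 0.33. Between Nc1Bio and BirA libraries of unlike number, such correlations ran from -0.39 to 0.25. Neither the depth nor the summed level of any marker list (DN, double-positive, mature αβ, γδ, B, NK, myeloid and erythroid cells) set both replicate 1 libraries apart from the other 4 in one direction. Some inbred strains, SJL among them, are known to lack the same run of V segments on their chromosome. All 6 libraries held reads of the stretch, from 775 in Nc1Bio replicate 2 to 2905 in BirA replicate 1. Such counts do not give the genotype of the animals at the locus. That genotype was not examined here, and the source of the division was not tested.

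Within the 9 segments, *Trbv13-2* led in every library. It was at 59.8, 16.8 and 23.4 CPM in Nc1Bio, against 66.5, 37.8 and 36.3 CPM in BirA, with a log2 fold change of -0.49 ± 0.46 by edgeR (adjusted p = 0.703). Its part of the reads of the stretch stayed between 26.8% and 34.2% in all libraries. *Trbv13-2* encodes the chain that antibodies know as Vβ8.2, and it was the top V segment in Nc1Bio replicate 1 with 22.2% of V reads and in BirA replicates 1, 2 and 3 with 21.1%, 14.8% and 12.02%. In Nc1Bio replicates 2 and 3 the top segment was instead *Trbv1*, with 17.0% and 14.8%. Per kilobase of gene length, *Trbv13-2* also had the highest mean level of the V segments, with 76.3 CPM in Nc1Bio and 107 CPM in BirA.

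The other 8 segments of the stretch had lower levels and were likewise highest in both replicate 1 libraries. *Trbv16* averaged 16.3 ± 7.86 CPM in Nc1Bio and 20.2 ± 7.82 CPM in BirA (means of 3 libraries with their SD, as for all means below). *Trbv12-2* averaged 13.9 ± 6.91 CPM in Nc1Bio and 18.3 ± 9.32 CPM in BirA, and *Trbv13-1* 11.9 ± 5.48 CPM in Nc1Bio and 18.03 ± 6.98 CPM in BirA. In these segments the SD within a group was larger than the difference between the groups, or close to it. *Trbv15* averaged 9.07 ± 3.57 CPM in Nc1Bio and 12.02 ± 3.59 CPM in BirA, *Trbv12-1* 7.70 ± 6.21 in Nc1Bio and 10.9 ± 1.70 CPM in BirA, and *Trbv13-3* 5.80 ± 2.93 in Nc1Bio and 9.58 ± 4.58 CPM in BirA. *Trbv14* averaged 5.25 ± 4.34 CPM in Nc1Bio and 7.68 ± 3.10 CPM in BirA, and *Trbv17* 4.40 ± 2.20 in Nc1Bio and 4.44 ± 1.23 CPM in BirA. All 9 log2 fold changes were below 0, from -0.72 (*Trbv13-3*, SE 0.48, edgeR adjusted p = 0.576) to -0.02 (*Trbv17*, SE 0.44, edgeR adjusted p = 0.993).

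The genotypes were also compared without both replicate 1 libraries, a choice made after the division had been seen, which leaves 2 libraries per group. The stretch then held 33.6% and 34.1% of V reads in Nc1Bio, against 43.3% and 41.0% in BirA, and the difference of the means was -8.35 percentage points, where all 6 libraries gave -5.90. Of its 9 segments, 7 lay wholly lower in CPM in Nc1Bio than in BirA, where 20.2% of all tested genes did, and the median log2 fold change was -0.67. An unadjusted p under 0.05 was reached by *Trbv12-1* (log2 fold change -1.24 ± 0.40), *Trbv13-2* (-0.88 ± 0.22) and *Trbv14* (-1.10 ± 0.43), where 6.85% of all tested genes reached it. After adjustment 0 of the *Trb* segments and 0 of all 12268 tested genes were called by edgeR, the lowest adjusted p of a *Trb* segment being 0.514. With single libraries left out, the difference in share was 2.27 percentage points without BirA replicate 1 and -16.5 without Nc1Bio replicate 1. It was -0.47 and -0.71 without Nc1Bio replicates 2 and 3. Without BirA replicate 2 or 3 the difference was below 0 as well, so only leaving out BirA replicate 1 gave a value above 0. Each of these leaves the replicate 1 libraries as unequal parts of the groups, so the values also carry the replicate division. The size and sign of the difference thus depended on which libraries were kept, and these values cannot separate genotype from that division.

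Outside the stretch, *Trbv1*, at the far end of the locus, was at 16.5, 29.7 and 37.8 CPM in Nc1Bio, against 19.8, 31.9 and 33.1 CPM in BirA, with a log2 fold change of -0.01 ± 0.32. Its neighbours *Trbv2* and *Trbv3* averaged 13.98 ± 7.001 and 16.7 ± 3.81 CPM in Nc1Bio, and 14.3 ± 1.61 and 22.5 ± 7.58 CPM in BirA. The group means of *Trbv1* and *Trbv2* were nearly equal, while that of *Trbv3* was lower in Nc1Bio by less than the SD of the BirA libraries.

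*Trbv19* was at 16.2, 18.7 and 24.5 CPM in Nc1Bio, against 15.4, 27.7 and 30.8 CPM in BirA (log2 fold change -0.31 ± 0.28, edgeR adjusted p = 0.690). *Trbv29* was at 12.7, 10.999 and 19.0 CPM in Nc1Bio, against 14.2, 18.7 and 26.7 CPM in BirA (log2 fold change -0.48 ± 0.29, edgeR adjusted p = 0.552). Each of these pairs of ranges overlapped, and 2 of the 3 BirA libraries of *Trbv19* lay above every Nc1Bio library. *Trbv20* averaged 6.22 ± 1.89 CPM in Nc1Bio and 6.82 ± 1.09 CPM in BirA, and *Trbv23* 3.67 ± 0.98 in Nc1Bio and 4.02 ± 0.97 CPM in BirA.

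The extreme fitted values belonged to segments with few reads or a wide spread. *Trbv21* had 1, 14 and 8 unique reads in Nc1Bio, against 0, 22 and 47 in BirA, with a log2 fold change of -1.38 ± 1.27 by edgeR (adjusted p = 0.697). Both replicate 1 libraries were at 0 or 1 read here, at or under the limit of 3 reads that a count of 0 allows. *Trbv26* had the highest value of the V segments, with 4.91, 7.89 and 14.4 CPM in Nc1Bio, against 4.48, 6.08 and 9.73 CPM in BirA (log2 fold change 0.42 ± 0.45, edgeR adjusted p = 0.743). The ranges of the groups overlapped in both segments. The inverted *Trbv31* averaged 13.1 ± 3.73 CPM in Nc1Bio and 13.0 ± 0.97 CPM in BirA, a log2 fold change of 0.01 ± 0.24.

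*Trbj2-1* led the J segments in both genotypes. It was the highest in each library, at 15.1, 12.1 and 13.5 CPM in Nc1Bio, against 13.5, 13.3 and 15.98 CPM in BirA (log2 fold change -0.07 ± 0.18, edgeR adjusted p = 0.899). *Trbj2-3* was second in each library, with 8.03 ± 1.21 CPM in Nc1Bio and 8.66 ± 1.03 CPM in BirA. The J segments are 46 to 54 bases long, so few reads of 49 bases fit within one, and their levels are not compared with those of V segments or C regions.

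Within the *Trbj2* cluster, *Trbj2-7* averaged 6.26 ± 1.41 CPM in Nc1Bio and 6.14 ± 1.65 CPM in BirA, and *Trbj2-4* 5.58 ± 1.49 in Nc1Bio and 6.54 ± 0.80 CPM in BirA. *Trbj2-5* averaged 4.25 ± 1.58 CPM in Nc1Bio and 4.81 ± 0.77 CPM in BirA, and *Trbj2-2* 2.89 ± 0.37 in Nc1Bio and 2.84 ± 0.17 CPM in BirA. All these differences were smaller than the larger SD of each pair. In the *Trbj1* cluster the means ran from 1.85 ± 0.38 CPM (*Trbj1-5*) to 4.40 ± 1.17 CPM (*Trbj1-2*) in Nc1Bio, and from 1.55 ± 0.66 CPM (*Trbj1-5*) to 4.37 ± 1.45 CPM (*Trbj1-1*) in BirA. *Trbj1-1* averaged 3.57 ± 0.30 CPM in Nc1Bio, and *Trbj1-2* 3.74 ± 1.35 CPM in BirA. *Trbj1-3* averaged 4.001 ± 0.68 CPM in Nc1Bio and 3.99 ± 1.43 CPM in BirA, *Trbj1-4* 4.10 ± 1.16 in Nc1Bio and 3.91 ± 0.76 CPM in BirA, and *Trbj1-6* 3.12 ± 0.64 in Nc1Bio and 2.94 ± 1.27 CPM in BirA. Over the 12 tested J segments the log2 fold changes ran from -0.29 (*Trbj1-1*, SE 0.36) to 0.25 (*Trbj1-5*, SE 0.51), and the lowest edgeR adjusted p was 0.786.

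**Figure D4:**
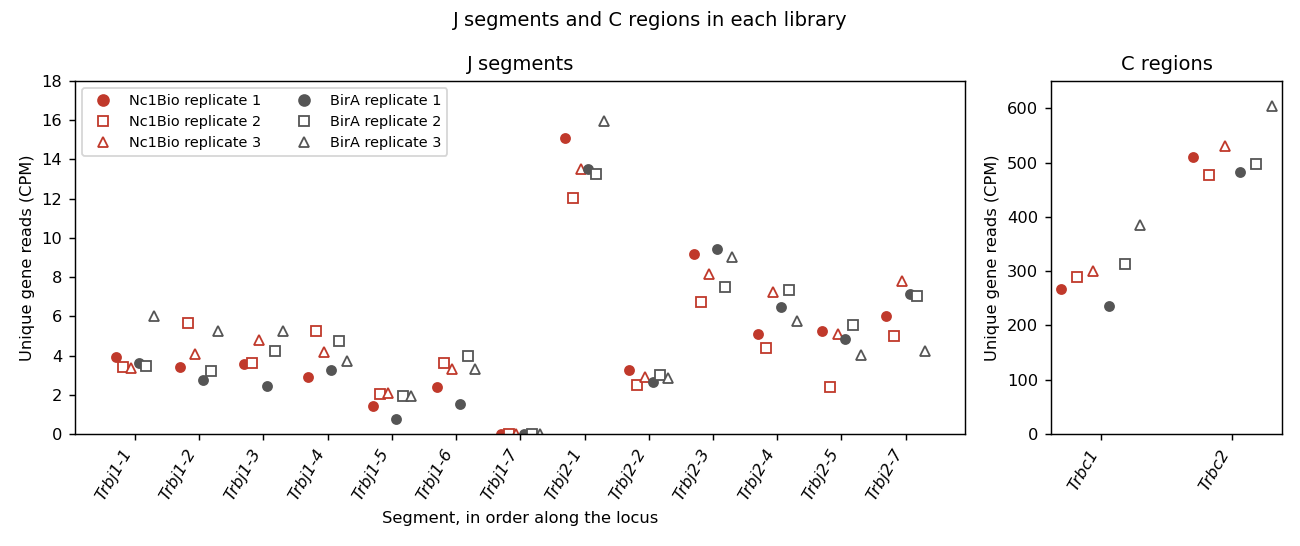
Unique gene reads in CPM (y axes) of the J segments and C regions in order along the locus (x axes) in each Nc1Bio (red) and BirA (grey) library, with replicate 1 filled. The groups overlap for each segment with reads, and *Trbj2-1* is the highest J segment in all 6 libraries. *Trbc2* lies above *Trbc1* in these unique reads, an order that total reads reverse.

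The first and the second D-J-C cluster were used in similar proportion in both genotypes. *Trbj1* segments took 28.7%, 41.7% and 32.8% of J reads in Nc1Bio, against 24.6%, 33.0% and 38.0% in BirA. *Trbc1* took 34.3%, 37.8% and 36.2% of unique C reads in Nc1Bio, against 32.8%, 38.6% and 38.9% in BirA. Both shares were lower in both replicate 1 libraries than in every other library, so the division by replicate number was not confined to the V stretch. The ranges of the genotypes overlapped in both shares. The mean difference was 2.56 percentage points for the *Trbj1* cluster and -0.68 percentage points for *Trbc1*, below the SD within either group. J reads per 100 C reads were also similar, with 7.42 to 8.01 in Nc1Bio and 6.83 to 8.14 in BirA.

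**Figure D5:**
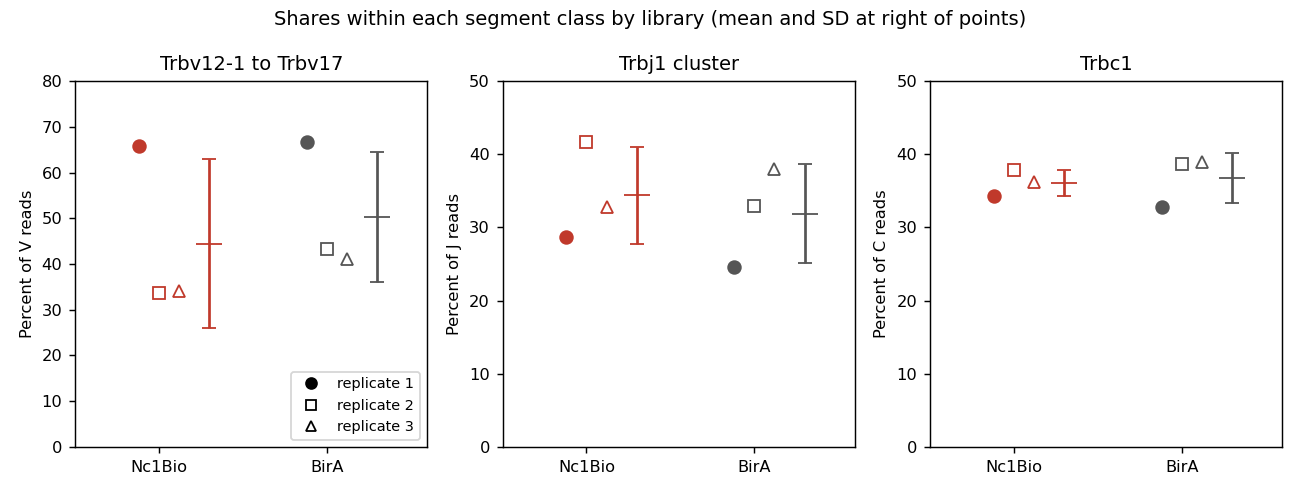
Share in percent (y axes) of *Trbv12-1* to *Trbv17* in V reads, of the *Trbj1* cluster in J reads and of *Trbc1* in unique C reads, for each Nc1Bio (left) and BirA (right) library, with the mean and SD of 3 libraries beside the points. The replicate 1 libraries (filled) are the highest in the first panel, at 65.7% in Nc1Bio and 66.7% in BirA, and lie below all other libraries in the other panels.

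The genes that act with the β chain were read beside the locus as background. Of 25 pre-TCR and β-selection genes, all tested, 17 had a log2 fold change above 0 and 8 below 0 (median 0.17), and 0 were called by edgeR. At an unadjusted p under 0.05 there were 4 higher and 3 lower, where 4.31% of all tested genes were higher and 7.66% lower. DESeq2 called 4 of the 25, namely *Ptcra* and *Notch3* as higher and *Zap70* and *Cd247* as lower, beside 2.79% of all genes. The counts of this list therefore depended on the tool, while those of the *Trb* segments did not.

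*Ptcra*, the partner of the β chain in the pre-TCR, was at 16.5, 34.3 and 17.9 CPM in Nc1Bio, against 9.46, 9.73 and 10.7 CPM in BirA. The groups did not overlap, with a log2 fold change of 1.20 ± 0.29 by edgeR (adjusted p = 0.222). *Notch3*, a receptor that acts upstream of *Ptcra*, averaged 160 ± 28.9 CPM in Nc1Bio and 114 ± 4.75 CPM in BirA, a log2 fold change of 0.49 ± 0.13 by edgeR (adjusted p = 0.263). *Dntt*, which adds bases at the joints of assembled segments, averaged 2576 ± 325 CPM in Nc1Bio and 2044 ± 145 CPM in BirA (log2 fold change 0.33 ± 0.12, edgeR adjusted p = 0.354). *Il2ra*, which encodes CD25 of the DN2 and DN3 stages, had a log2 fold change of 0.61 ± 0.25 by edgeR (adjusted p = 0.403). None of these 4 passed the edgeR threshold.

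Signalling genes of the list had values on both sides of 0. *Cd247*, the ζ chain of the receptor complex, averaged 236 ± 16.8 CPM in Nc1Bio and 311 ± 10.6 CPM in BirA (log2 fold change -0.40 ± 0.09, edgeR adjusted p = 0.194). The kinase gene *Zap70* averaged 127 ± 8.96 CPM in Nc1Bio and 168 ± 9.48 CPM in BirA (log2 fold change -0.40 ± 0.09, edgeR adjusted p = 0.212). *Lcp2*, the adaptor SLP-76, had a log2 fold change of -0.34 ± 0.14 by edgeR (adjusted p = 0.397). The kinase gene *Lck* (0.26 ± 0.12) and the CD3 chain genes *Cd3g* (0.17 ± 0.12) and *Cd3e* (0.10 ± 0.10) had log2 fold changes above 0, and *Cd3d* (-0.12 ± 0.13) and the adaptor gene *Lat* (-0.10 ± 0.12) below 0. As with the other genes of the list, none of these passed the edgeR threshold.

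Of the other TCR constant regions, those of the α and δ chains and one of the γ chain had lower fitted values than those of the β locus. *Trac*, the constant region of the α chain, which is assembled after β selection, was at 16.4, 7.89 and 15.3 CPM in Nc1Bio, against 58.0, 25.7 and 26.3 CPM in BirA (log2 fold change -1.48 ± 0.39, edgeR adjusted p = 0.261). *Trdc* of the δ chain was at 36.4, 35.1 and 50.3 CPM in Nc1Bio, against 40.7, 66.3 and 67.3 CPM in BirA (log2 fold change -0.52 ± 0.22, edgeR adjusted p = 0.416). The γ chain constant regions differed among themselves. *Tcrg-C4* was at 218, 75.6 and 163 CPM in Nc1Bio, against 290, 244 and 271 CPM in BirA (log2 fold change -0.82 ± 0.33, edgeR adjusted p = 0.392), while *Tcrg-C1* and *Tcrg-C2* had log2 fold changes of -0.04 ± 0.13 and -0.03 ± 0.11. The ranges of *Trac* and *Tcrg-C4* did not overlap, while those of *Trdc*, like those of *Trbc1* and *Trbc2*, did. Whether the loci differ from each other in their response was not tested.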

How the data were processed

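Poly(A) RNA from CD4-CD8- thymocytes of 3 Nc1Bio and 3 BirA samples was sequenced as single reads. Per the study's methods, reads were trimmed with cutadapt, aligned with STAR to GRCm38 (also named in the submitters' processing notes) and counted with featureCounts. The deposited tables have a layout that differs from featureCounts output, and none of the sources used here names the program behind it. The deposited values used were raw counts, the unique and the total gene reads of each gene, not normalized by the authors. Exon reads were not used, because most segments have no annotated exon length. The deposited RPKM and TPM columns were not used. Whether strand was used in counting is not stated, so sense and antisense reads cannot be told apart.

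Unique gene reads of genes kept by filterByExpr (12224 of 41457) were scaled by TMM and tested with edgeR 4.0.16 (R 4.3.3) by the quasi-likelihood test with genotype as the only term, adjusted by Benjamini-Hochberg over all genes, with calls at 0.05. Standard errors (SE) were derived from each fold change and its F statistic. CPM were computed with effective (TMM) library sizes. Sums, shares and ratios are given per library without a test, shares of single libraries with 95% Wilson intervals. The limit for a count of 0 is 3 reads. The study's methods used DESeq2, run here as version 1.42.0 as an alternative, beside limma 3.58.1 (voom), total gene reads, RLE scaling, plain library totals, other filters, a replicate block and leaving out each library. The exclusion of both replicate 1 libraries was added after the data were seen. Identity and shared windows of coding sequences used Biopython 1.88. Total unique reads per library, 11845952 to 15393763, were 64.1% to 76.0% of total gene reads. The steps were tested on simulated data.

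The members and lists were chosen with earlier results of these data known. All members are accounted for. Values are given for all D and C rows, for J rows with a mean of at least 10 reads and for all tested V rows, among them the highest V rows and those of most extreme fold change. Of the 25 pre-TCR genes, *Ptcra* and the 6 others of lowest p are named, and *Trac*, *Trdc* and *Tcrg-C1* are given as constant regions of other TCR chains. *Tcrg-C2*, *Tcrg-C4* and 5 further signalling genes of the list were added after their values were seen, to show values on both sides. *5830405F06Rik* was named after its values were seen, because it covers *Trbv4* and *Trbv5*. The sequences of D and J segments are not shown.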

Additional observations from a re-analysis of the deposited data

How the results depend on the processing

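The count of *Trb* segments called was 0 under each alternative run (total gene reads, RLE scaling, no low-count filter, at least 1 CPM in 3 libraries, DESeq2, limma-voom, the replicate block, the study's thresholds, leaving out each library, and leaving out both replicate 1 libraries). Of 462 values of single segments under alternatives, 418 kept their sign and 44 did not, in 21 of the 33 segments, all with values that never passed the test. The cause was not tested. Without both replicate 1 libraries the log2 fold changes were 0.054 for *Trbv1*, 0.059 for *Trbv2*, -0.17 for *Trbj1-3*, -0.071 for *Trbj1-6* and -0.11 for *Trbj2-2*. *Trbv31* was at -0.022 with limma-voom.

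Same-numbered samples do not share a stated source, and their deviations correlated at 0.33, 0.12 and -0.10 for numbers 1, 2 and 3, so the numbers were not taken as pairs. With the replicate block 0 segments were called, 3 had an unadjusted p under 0.05 (*Trbv13-1*, *Trbv13-2* and *Trbv13-3*, lowest adjusted p 0.280) where 12.5% of all tested genes did, and *Trbv31* was at -0.028. Not every library correlated best with its own number.

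Leaving out single libraries moved these log2 fold changes across 0. They ran from -0.29 to 0.26 for *Trbv1*, from -0.52 to 0.18 for *Trbv2*, from -0.89 to 0.091 for *Trbv12-2*, from -0.69 to 0.011 for *Trbv16*, from -0.50 to 0.23 for *Trbv17*, from -0.38 to 0.065 for *Trbv20*, from -0.35 to 0.087 for *Trbv23*. Those of other segments ran from -0.076 to 0.78 for *Trbv26*, from -0.43 to 0.019 for *Trbj1-1*, from -0.25 to 0.26 for *Trbj1-3*, from -0.14 to 0.27 for *Trbj1-4*, from -0.064 to 0.44 for *Trbj1-5*, from -0.22 to 0.37 for *Trbj1-6*, from -0.29 to 0.061 for *Trbc1*. Those of other segments ran from -0.15 to 0.020 for *Trbj2-1*, from -0.059 to 0.12 for *Trbj2-2*, from -0.21 to 0.0030 for *Trbj2-3*, from -0.35 to 0.10 for *Trbj2-5*, from -0.18 to 0.17 for *Trbj2-7*, from -0.12 to 0.049 for *Trbc2*, from -0.24 to 0.18 for *Trbv31*.

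The count of *Trb* segments below 0 was 18 to 28 when single libraries were left out, against 24 with all. The count of pre-TCR genes called was 4 with DESeq2 and 0 with all other alternatives run for it. The summed V value was -0.43 to -0.15 and the shares differed by -16.5 to 2.27 points for the stretch from *Trbv12-1* to *Trbv17*, by -1.08 to 5.62 points for the *Trbj1* cluster and by -2.67 to 0.37 points for *Trbc1*. The summed J and C values were -0.11 to 0.01 and -0.18 to 0.05. Standard errors of the log2 fold changes were 0.24 to 1.27 for V and 0.18 to 0.51 for J segments. A change of several times its SE is needed to pass the test, so smaller ones were not detectable with this depth and spread.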
